A study of Mus musculus with 6 samples.

Results

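Mouse embryonic stem cells were grown toward cortical progenitors and sorted on 3 consecutive days, and the genes described here are those that stood higher or lower on day 12 than on day 11 and day 13 in both sorted fractions. In each fraction the log2 signal of day 12 was set against the mean of day 11 and day 13, and genes with the same sign in both fractions were kept, which held for 15397 of 19938 genes (77.2%). Of these, 39 genes (0.196% of all) were over 2-fold higher on day 12 in both fractions and 8 genes (0.0401%) were over 2-fold lower in both, and these 47 genes are described gene by gene. The differences chose the genes, so they are given as a description with no test. The share of genes with the same sign on day 12 was 71.0% after median centring of each array and 65.0% after quantile normalization. By the same rule it was 52.0% for day 11 and 63.3% for day 13.

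The cells came from CTIP2:GFP KI mESCs of the 129SVEV background, in which GFP follows the coding sequence of Ctip2 (Bcl11b), a transcription factor of deep-layer cortical neurons, by way of an internal ribosome entry site, with the neomycin cassette still in place. They were grown by the SFEBq method, as floating aggregates, with SB-431542, an inhibitor of the TGF-beta receptor, and WNT-C59, an inhibitor of WNT secretion, in the early medium, and these conditions were shared by all groups. CTIP2:GFP+ and CTIP2:GFP- cells were each sorted on day 11, day 12 and day 13, at least 80000 cells per RNA preparation, with 1 array for each fraction and day. The labels name no repeat culture of a day, GFP marks cells in which the Ctip2 locus is active rather than 1 cell type, and the culture, the sort and the array work of a day cannot be told apart from the day itself. A difference on day 12 therefore has no replicate check beyond its appearance in both fractions of that day.

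Each array was summarised by the authors as log2 RMA16 signals, and 6 arrays limit the precision of every value. Array medians ran from 5.32 to 5.52, while the standard deviation over probe sets was 1.11 on the CTIP2:GFP- array of day 13 and 1.29 to 1.48 on the other arrays. That array also had the lowest correlations with the others (0.863 to 0.927 across probe sets), and what changes when it is left out is given below for the genes that change most and for the counts. Bcl11b, the gene of the sort, stood at 8.76, 7.91 and 8.54 in CTIP2:GFP+ cells on day 11, day 12 and day 13 and at 6.44, 6.27 and 6.88 in CTIP2:GFP- cells, and the fractions did not overlap. Its lowest value in both fractions was that of day 12. The neuronal markers Tubb3, Dcx, Map2, Stmn2, Syt1 and Snap25 had medians of 10.42, 10.34 and 10.04 in CTIP2:GFP+ cells and 9.36, 9.28 and 7.88 in CTIP2:GFP- cells. The median of 13 markers of other cells, among them Pecam1, Ptprc, Col1a1, Epcam, Pou5f1 and Nanog, was 4.89 to 5.52 on the 6 arrays, where the 20th percentile of all values was 4.65.

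As background, cells that lack oxygen stabilise hypoxia-inducible factors, which bind a short core sequence near their targets and raise glucose uptake and glycolysis. The ventral telencephalon makes GABAergic interneurons under Nkx2-1 and Dlx factors, whereas the dorsal telencephalon makes glutamatergic neurons under Pax6, and Cajal-Retzius cells are among the earliest neurons at its edges. Small non-coding RNAs such as the Y RNAs and the RNA of RNase P are made in all cells and carry no poly(A) tail.

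The 4 hypoxia and glucose genes among the 39, Slc2a1, Bnip3, Egln3 and Aldoc, are all textbook targets of hypoxia-inducible factors, and the letters before their starts are shown because these members share the core sequence ACGTG. RefSeq promoters of GRCm38.p6, 250 bases before to 50 after a start, were held for 35 of the 47 genes. The next lines give the 250 bases before the start for Slc2a1 (chr4:119108495-119108744, + strand), Bnip3 (chr7:138909507-138909756, - strand) and Egln3 (chr12:54203875-54204124, - strand), 5′ to 3′, in lower case with ACGTG on either strand in capitals.
Slc2a1: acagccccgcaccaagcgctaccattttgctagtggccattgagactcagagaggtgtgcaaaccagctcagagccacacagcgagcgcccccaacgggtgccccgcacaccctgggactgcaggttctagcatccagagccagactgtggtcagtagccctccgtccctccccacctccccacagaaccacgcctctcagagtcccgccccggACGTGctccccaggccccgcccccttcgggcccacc
Bnip3: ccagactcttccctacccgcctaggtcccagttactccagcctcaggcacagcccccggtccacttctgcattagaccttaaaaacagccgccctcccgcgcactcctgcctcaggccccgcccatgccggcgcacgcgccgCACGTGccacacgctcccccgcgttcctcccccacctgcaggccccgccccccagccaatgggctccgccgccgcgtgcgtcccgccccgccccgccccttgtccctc
Egln3: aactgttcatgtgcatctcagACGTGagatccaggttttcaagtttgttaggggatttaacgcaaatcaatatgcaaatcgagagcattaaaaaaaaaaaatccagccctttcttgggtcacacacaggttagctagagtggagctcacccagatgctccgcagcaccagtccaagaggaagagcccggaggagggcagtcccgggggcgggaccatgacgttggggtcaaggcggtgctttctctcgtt
The core begins 36 bases before the start of Slc2a1 and 229 before that of Egln3, and in Bnip3 the letters of both strands overlap in 1 run of CACGTG that begins 108 bases before the start. Aldoc has 2 starts in the table, and a match on the opposite strand ended 32 bases after the first of them. ACGTG was found on either strand in the promoters of 4 of these 4 genes, of 23 of 31 genes of the hypoxia and glycolysis list with a promoter, of 11 of 32 higher genes and of 2 of 3 lower genes, against 21.8% of 27025 genes in the table. The longer CACGTG, which contains the core and is also the E-box of SREBP, was in 2 of the 32 higher genes and in 8.09% of all genes. A match is a description of letters only, and no binding was measured.

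Glucose and hypoxia genes stood higher on day 12 in both fractions. Slc2a1, which encodes the glucose transporter GLUT1, had log2 signals of 8.29, 9.52 and 8.45 in CTIP2:GFP+ cells on day 11, day 12 and day 13 and 9.92, 11.33 and 9.67 in CTIP2:GFP- cells. The day 12 array was the highest of each fraction, by 2.21-fold and 2.90-fold over the mean of the other days, and day 11 and day 13 lay close together in both. Bnip3, a mitochondrial protein that directs mitochondria to autophagy, stood at 7.61, 9.09 and 7.93 and 8.90, 9.66 and 6.90, which was 2.50-fold and 3.40-fold above the other days, and its other probe set, with differences of 0.49 and 1.16, was higher by less. Egln3, a prolyl hydroxylase that marks hypoxia-inducible factors for destruction, stood at 5.77, 7.30 and 6.48 and 8.01, 8.97 and 7.02. Aldoc, the glycolytic enzyme aldolase C, stood at 5.85, 6.94 and 6.01 and 6.61, 8.73 and 7.87. In CTIP2:GFP- cells Aldoc of day 13 lay nearer to day 12 than to day 11, whereas Bnip3 and Egln3 were lowest there on day 13. All 4 genes had the larger difference in CTIP2:GFP- cells against the mean of both other days. Against day 11 alone the differences were 1.48 and 0.77 for Bnip3 and 1.53 and 0.97 for Egln3, the opposite order. They were 1.23 and 1.41 for Slc2a1 and 1.09 and 2.12 for Aldoc, the same order.

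**Figure D1:**
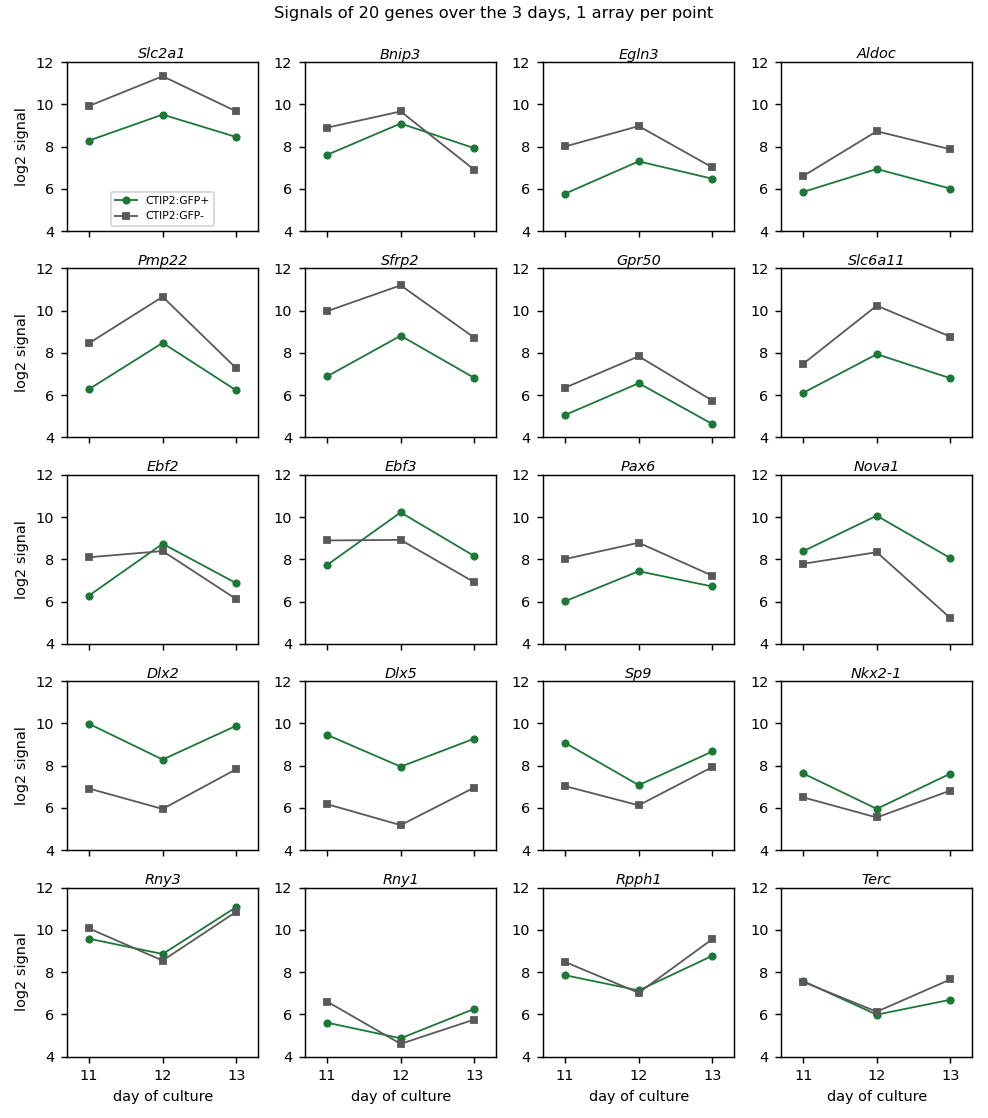
Log2 signals of 20 of the 47 genes against the day of culture, with 1 array per point, circles for CTIP2:GFP+ and squares for CTIP2:GFP- cells, all panels on the same axis. The first 12 genes peak on day 12 in both fractions, although Ebf3 was 8.89 on day 11 and 8.92 on day 12 in CTIP2:GFP- cells, and the last 8 are lowest on day 12 in both.

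The wider hypoxia and glycolysis list lay in the same direction. Of its 36 measured genes, 31 were higher on day 12 in both fractions and 2, Ankrd37 and Car9, were lower in both, where 32.9% of all genes were higher in both. The median difference was 0.47 in CTIP2:GFP+ and 0.90 in CTIP2:GFP- cells, beside -0.03 and -0.06 over all genes and 0.11 and 0.66 over the brightest 20% of genes. Day 12 was the highest of the 3 days in both fractions for 28 of the 36, against 23.7% of all genes. Slc2a1, Bnip3, Egln3 and Aldoc are in this list and were chosen by that difference, so their part of these counts was fixed. Ldha, lactate dehydrogenase A, stood at 9.67, 10.53 and 9.90 and 10.53, 11.40 and 9.98, and Pgk1, phosphoglycerate kinase, at 8.14, 9.20 and 8.44 and 8.89, 9.96 and 8.47. Vegfa, the angiogenic growth factor, differed by only 0.30 and 0.27, and Hif1a itself by 0.40 and 0.90. After a further quantile normalization the medians of the list were 0.29 and 0.37. Against day 11 alone they were 0.58 and 0.76.

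Among regulators of transcription and RNA, 9 genes were over 2-fold higher in both fractions, and the 2 with the largest differences in CTIP2:GFP+ cells were Ebf3 and Ebf2, helix-loop-helix factors of newborn neurons. Ebf3 stood at 7.73, 10.22 and 8.16 in CTIP2:GFP+ and 8.89, 8.92 and 6.92 in CTIP2:GFP- cells, so that day 12 was 4.85-fold above the other days in CTIP2:GFP+ cells. Ebf2 stood at 6.29, 8.74 and 6.87 and 8.10, 8.39 and 6.12. In CTIP2:GFP- cells the 2 genes were nearly level from day 11 to day 12 and lower on day 13, so their differences there, 1.02 and 1.28, rest on the day 13 array. Nova1, a neuronal splicing factor, had about the same difference in both fractions, 1.84 and 1.83, with signals of 8.39, 10.07 and 8.06 and 7.79, 8.34 and 5.22. It also stood far lower on day 13 than on day 11 in CTIP2:GFP- cells, and its other probe set differed by 1.65 and 0.63. Pax6, the dorsal telencephalic progenitor factor, stood at 6.02, 7.44 and 6.71 and 8.01, 8.79 and 7.22. It was highest on day 12 in both fractions, and all 3 CTIP2:GFP- values lay above the CTIP2:GFP+ value of the same day. Hoxa2, a hindbrain homeobox gene, stood at 6.26, 7.07 and 5.87 and 7.47, 7.79 and 5.62. It was 1 of 37 measured Hox genes, in a list added after seeing the data. Of these, 34 were lower on day 12 in both fractions and 1, Hoxa2, was higher in both, beside 44.3% lower and 32.9% higher of all genes. The Hox medians were -0.16 and -0.49, and their median signals were 4.70 to 5.55 on the 6 arrays. All genes with a mean signal of 4.76 to 5.26 had medians of -0.09 and -0.29, so dim genes as a whole were lower too. Id2, an inhibitor of helix-loop-helix factors, stood at 7.66, 9.28 and 7.95 and 7.66, 8.53 and 6.83. The other 3 regulators, Rorb, Prdm8 and Nhlh1, differed by 1.03 to 1.53 in CTIP2:GFP+ and 1.14 to 1.59 in CTIP2:GFP- cells, the latter 0.56 to 1.02 against day 11 alone.

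Cajal-Retzius genes were higher on day 12 in CTIP2:GFP+ cells, while in CTIP2:GFP- cells their difference turned on the reference day. Of 14 measured genes of the list, 9 were higher on day 12 in both fractions and 2, Barhl2 and Trp73, were lower in both, with medians of 1.12 and 0.60, beside 32.9% higher and 44.3% lower of all genes. Ebf2 and Ebf3 are among the 9 and were chosen by that difference, so their part of the count was fixed. Over 2-fold higher in both were Ebf2 and Ebf3, and over 2-fold higher were 7 genes in all in CTIP2:GFP+ and 5 in CTIP2:GFP- cells. The 3 others of the latter, Cxcr4 (-0.27 and 1.06), Ndnf (0.33 and 1.07) and Ebf1 (0.97 and 1.34), had the larger difference in CTIP2:GFP- cells. Reln, the secreted glycoprotein of Cajal-Retzius cells, stood at 7.03, 8.44 and 6.83 in CTIP2:GFP+ and 6.07, 6.01 and 6.23 in CTIP2:GFP- cells. Calb2, the calcium-binding protein calretinin, stood at 5.38, 8.22 and 5.63 and 5.28, 6.11 and 5.93. Both peaked on day 12 in CTIP2:GFP+ cells, while Reln was lowest on day 12 in CTIP2:GFP- cells. Against day 11 alone the medians were 1.20 in CTIP2:GFP+ and 0.01 in CTIP2:GFP- cells, and against day 13 alone they were 0.89 and 1.26, the opposite order. The difference between the fractions was not tested. In such bulk samples, fewer cells of a type and less RNA per cell cannot be told apart.

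Secreted signals and signal receptors gave 5 of the 39 genes, with Crabp1, which is neither, grouped among them. Sfrp2, a secreted modulator of WNT signalling, stood at 6.89, 8.82 and 6.82 in CTIP2:GFP+ and 9.98, 11.20 and 8.73 in CTIP2:GFP- cells, 3.89-fold and 3.60-fold above the other days. Day 12 was more than 2-fold above each of the other days in both fractions, and the CTIP2:GFP- value was the higher one on each day. Chrdl1, an antagonist of BMP, stood at 5.22, 6.20 and 5.16 and 5.18, 7.09 and 5.99. Lgr4, a receptor of R-spondins that strengthens WNT signalling, stood at 5.02, 6.16 and 5.20 and 7.26, 7.80 and 5.21, and its CTIP2:GFP- value of day 13 lay at the CTIP2:GFP+ level. Boc, a coreceptor of Hedgehog, differed by 1.04 and 1.40, and Crabp1, which binds retinoic acid in the cytoplasm, by 1.25 and 1.35, and against day 11 alone the CTIP2:GFP- differences were 0.80 and 0.72. Of 43 measured genes of the WNT pathway list, 13 were higher on day 12 in both fractions and 20 were lower (30.2% and 46.5%), close to the 32.9% and 44.3% of all genes, and 1 gene of the list, Sfrp2, was over 2-fold higher in both.

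Guidance and adhesion gave 6 genes. Sema3a, a secreted axon repellent, stood at 6.49, 7.96 and 6.89 in CTIP2:GFP+ and 7.40, 8.58 and 6.35 in CTIP2:GFP- cells, and its day 12 value was over 2-fold above each other day in both fractions. Dcc, the netrin receptor of growing axons, stood at 8.63, 10.01 and 9.12 and 9.48, 9.68 and 7.64, and Epha7, a receptor of ephrins, at 7.06, 8.06 and 6.88 and 6.58, 7.43 and 5.89. In CTIP2:GFP- cells Dcc of day 12 was close to day 11 and well above day 13. Fat3, a large atypical cadherin, stood at 8.37, 9.84 and 8.20 and 8.71, 9.28 and 7.36. It has 15 probe sets on the array, of which 15 were higher on day 12 in CTIP2:GFP+ and 14 in CTIP2:GFP- cells, 14 and 6 of them over 2-fold. Edil3, a secreted protein that binds integrins, differed by 1.67 and 1.05, and Lrrn1, a neuronal membrane protein with leucine-rich repeats, by 1.15 and 1.35. Against day 11 alone their CTIP2:GFP- differences were 0.40 and 0.44. For all 6 genes the CTIP2:GFP- value of day 13 was below that of day 11.

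Receptors and transporters of transmitters gave 7 genes, with Lamp5, which is neither, grouped among them. Slc6a11, a GABA transporter, stood at 6.11, 7.94 and 6.81 in CTIP2:GFP+ and 7.49, 10.24 and 8.77 in CTIP2:GFP- cells, and Slc1a3, the glial glutamate transporter, at 5.88, 7.66 and 6.37 and 8.44, 10.05 and 9.58. In both genes day 13 lay above day 11 in both fractions and below day 12. Slc6a5, the neuronal glycine transporter, stood at 6.95, 8.53 and 6.27 and 7.33, 7.68 and 5.98, and Lamp5, a lysosome-associated membrane protein of neurons, at 7.09, 8.26 and 6.56 and 6.86, 7.06 and 4.85. In both genes day 13 was the lowest day of each fraction. Gria3, a subunit of AMPA receptors, differed by 1.68 and 1.05, Grm3, a metabotropic glutamate receptor, by 1.10 and 1.02, and Chrna3, a nicotinic receptor subunit, by 1.08 and 1.16. Against day 11 alone the CTIP2:GFP- differences of these 3 were 0.81, 1.35 and 0.30. The receptors and transporters thus included genes of glia and of neurons.

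Pmp22, a membrane protein best known from peripheral myelin, had the largest mean difference of the 2 fractions among all genes. It stood at 6.29, 8.48 and 6.23 in CTIP2:GFP+ and 8.46, 10.66 and 7.28 in CTIP2:GFP- cells, 4.65-fold and 6.91-fold above the other days. Gpr50, an orphan receptor related to the melatonin receptors, stood at 5.06, 6.57 and 4.64 and 6.36, 7.84 and 5.75, so that on day 11 and day 13 its CTIP2:GFP+ signal was near the dim end of the array. Aqp6, an aquaporin, stood at 5.87, 7.57 and 6.02 and 6.28, 7.33 and 5.79. In these 3 genes day 12 was over 2-fold above each other day in both fractions. Tspan18, a tetraspanin, Stk39, a kinase that controls cation-chloride cotransport, Hspa12a, of the HSP70 family, and the gene models BC052040 and 4922502B01Rik differed by 1.01 to 1.55 in CTIP2:GFP+ and 1.05 to 1.75 in CTIP2:GFP- cells, the latter 0.39 to 1.25 against day 11 alone.

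**Figure D2:**
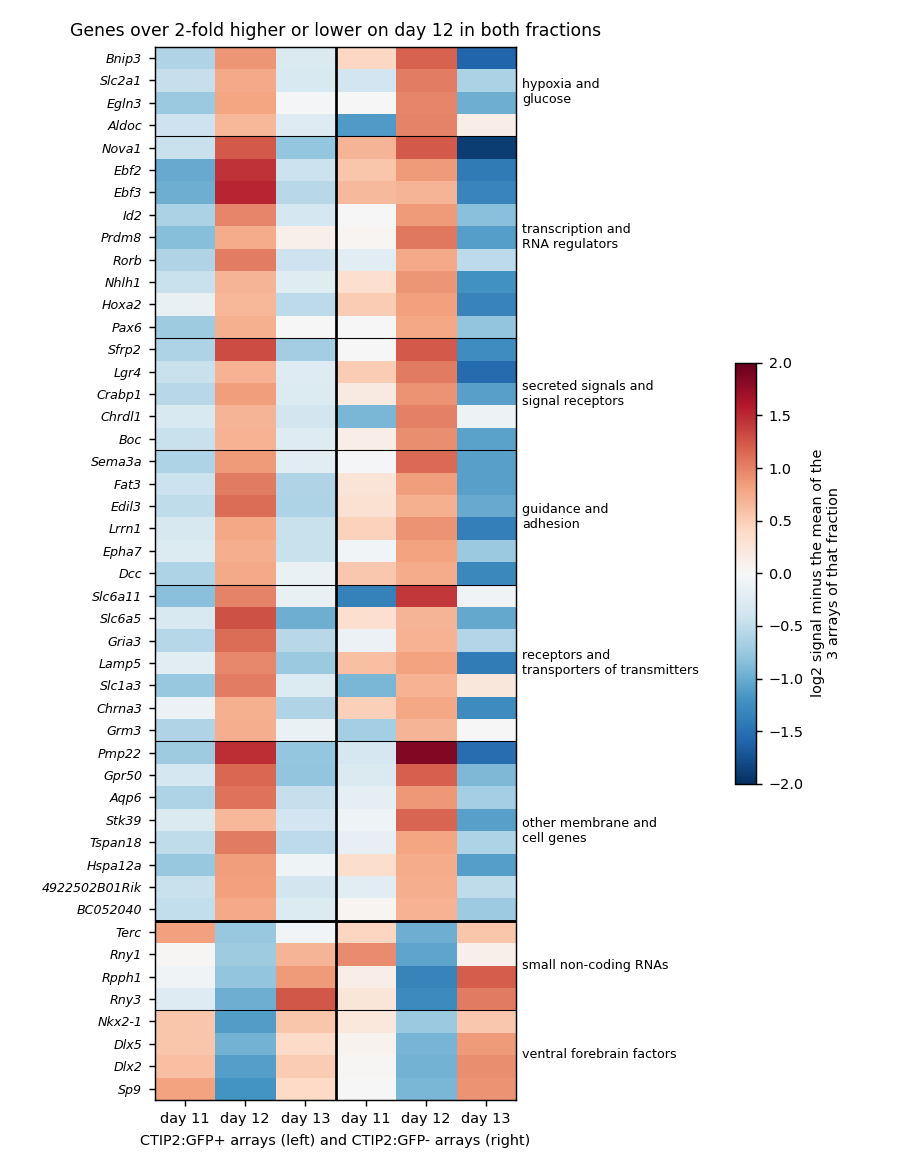
Log2 signal of the 47 genes on the 6 arrays, each gene shown relative to its mean over the 3 arrays of the fraction (colour scale from -2 to 2), grouped by role. Day 12 is the highest array of each fraction for the 39 upper genes and the lowest for the 8 lower ones, and the deepest blue among the upper genes lies on the CTIP2:GFP- array of day 13, with Nova1 at 5.22.

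Ventral forebrain regulators made up 4 of the 8 lower genes. Dlx2, a homeobox gene of GABAergic progenitors, stood at 9.98, 8.29 and 9.89 in CTIP2:GFP+ and 6.92, 5.95 and 7.83 in CTIP2:GFP- cells. Dlx5, a related gene that acts later in the same cells, stood at 9.46, 7.95 and 9.28 and 6.18, 5.19 and 6.96. Day 12 was the lowest of each fraction in both genes, and day 11 and day 13 of CTIP2:GFP+ cells were nearly equal. Sp9, a zinc finger factor of the ganglionic eminences, stood at 9.08, 7.08 and 8.67 and 7.03, 6.12 and 7.94. Nkx2-1, which specifies the medial ganglionic eminence, stood at 7.63, 5.96 and 7.62 and 6.50, 5.55 and 6.82. Day 12 lay 2.67-fold to 3.48-fold below the other days in CTIP2:GFP+ cells and 2.16-fold to 2.68-fold below in CTIP2:GFP- cells, and the difference was larger in CTIP2:GFP+ cells for all 4. In CTIP2:GFP- cells day 12 was under 2-fold below day 11 and over 2-fold below day 13 for all 4. Dlx2 and Sp9 lie on chromosome 2, Dlx5 on chromosome 6 and Nkx2-1 on chromosome 12.

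Of 25 measured genes of the GABA, MGE and interneuron list, 18 were lower on day 12 in both fractions and 1, Sp8, was higher, where 44.3% of all genes were lower in both. Dlx2, Dlx5, Sp9 and Nkx2-1 are in this list and were chosen by that difference, so their part of the counts was fixed. The list medians were -0.71 and -0.38, and day 12 was the lowest of the 3 days in both fractions for 15 genes, against 32.5% of all genes. The list keeps this sign under median centring (-0.67 and -0.22), quantile normalization (-0.93 and -0.45) and against day 11 alone (-0.92 and -0.26). Lhx6, a factor of interneurons from the medial ganglionic eminence, stood at 9.52, 7.13 and 9.15 in CTIP2:GFP+ and 5.98, 5.65 and 6.65 in CTIP2:GFP- cells, and Dlx1, a partner of Dlx2, at 10.19, 8.75 and 10.16 and 6.68, 5.93 and 6.81. In both genes the difference passed 2-fold in CTIP2:GFP+ cells alone. Gad2, an enzyme of GABA synthesis, stood at 9.83, 9.26 and 9.65 and 7.98, 7.73 and 6.22, and the neuropeptide gene Sst at 10.89, 9.41 and 8.83 and 7.50, 6.95 and 5.82. Neither of the 2 was lowest on day 12 in CTIP2:GFP- cells, and Sst was not lowest on day 12 in CTIP2:GFP+ cells. Other genes lowest on day 12 in both fractions, below the 2-fold threshold in 1 or both, were the progenitor factor Sox1 (-2.06 and -0.88), Tox2 (-1.40 and -0.79), Maf (-1.26 and -0.78), Vax1 (-0.77 and -1.35), Six3 (-0.78 and -0.95), Srgn (-0.94 and -0.83) and Dlgap1 (-0.87 and -1.01).

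Small non-coding RNAs made up the other 4 lower genes. Rny3, a Y RNA bound by the Ro60 protein, stood at 9.58, 8.85 and 11.07 in CTIP2:GFP+ and 10.07, 8.54 and 10.85 in CTIP2:GFP- cells, and Rny1, the other Y RNA measured, at 5.60, 4.86 and 6.26 and 6.60, 4.60 and 5.75. Rpph1, the RNA of the tRNA-processing enzyme RNase P, stood at 7.85, 7.13 and 8.77 and 8.48, 7.02 and 9.56, and Terc, the template RNA of telomerase, at 7.57, 5.98 and 6.69 and 7.54, 6.12 and 7.65. Day 12 was the lowest of each fraction for the 4 genes, and on day 12 the 2 fractions lay close together. The differences were -1.47, -1.07, -1.18 and -1.15 in CTIP2:GFP+ and -1.92, -1.58, -1.998 and -1.47 in CTIP2:GFP- cells, and all 4 were larger in the latter. In CTIP2:GFP- cells each of the 4 was over 2-fold below both other days, whereas in CTIP2:GFP+ cells 1, Terc, was over 2-fold below day 11 and 3, Rny3, Rny1 and Rpph1, were over 2-fold below day 13. A list of Y RNA, RNase P, RNase MRP, telomerase, 7SK and 7SL RNA genes was added after seeing the data. Of its 8 measured genes, 8 were lower on day 12 in both fractions, where 44.3% of all genes were. The 4 genes above are in this list and were chosen by that difference, so their part of the count was fixed. Beyond the 4, Rmrp, the RNA of RNase MRP, differed by -0.83 and -1.50, and Rn7sk, which holds the elongation factor P-TEFb inactive, by -0.28 and -1.08. Rprl1 and Rprl2, sequences related to Rpph1 that can share its probes, were also lower, by differences of -0.62 and -0.77 for Rprl1 and -0.55 and -1.06 for Rprl2. Small non-coding RNAs as a kind did not all go this way. The 53 measured small nucleolar RNAs had medians of -0.004 and -0.04, with 35.8% lower and 30.2% higher in both fractions. The 7 small nuclear RNAs had medians of -0.03 and -0.15, with 85.7% lower in both.

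Histone genes of the H1 to H4 clusters, whose mRNAs also end without a poly(A) tail, were lower on day 12, most of them by less than 2-fold. Of 26 measured, in a list added after seeing the data, 24 were lower on day 12 in both fractions and 0 were higher. Their medians were -0.26 and -0.58, and 44.3% of all genes were lower in both. Another histone list, not added after seeing the data, had 21 measured genes. Of these, 18 were lower in both fractions and 1 was higher, with medians of -0.25 and -0.68. H2bc14, H4c4, H4c6 and H4c14 are in both lists and were named for their large falls, so their part of the counts was fixed. H4c4, at 9.30, 8.24 and 9.38 in CTIP2:GFP+ and 10.15, 9.11 and 10.06 in CTIP2:GFP- cells, lay just outside the 2-fold threshold, with H4c6 next (-0.93 and -1.27). H2bc14 stood at 8.09, 7.59 and 8.66 and 9.93, 8.30 and 10.24, and its values of day 12 were the lowest of each fraction. Histone genes of 1 type, such as H4, can be near-identical in sequence and share probes. Genes of G2 and mitosis did not go with them, since 42 of 46 were higher on day 12 in both fractions and 0 were lower, beside 32.9% higher and 44.3% lower of all genes, with medians of 0.26 and 0.60. After quantile normalization these medians were 0.20 and 0.32, and against day 13 alone 0.07 and 0.54. Cholesterol and fatty acid synthesis was higher too, in 26 of 29 genes in both fractions and lower in 0, with medians of 0.41 and 1.04 (0.29 and 0.61 after quantile normalization), but 0 of its genes passed 2-fold in both fractions. Of 30 endothelial and blood genes, 28 were lower in both fractions, where 44.3% of all genes were, with medians of -0.16 and -0.32 and median signals of 4.94 to 5.29. All genes with a mean signal of 4.76 to 5.26 had medians of -0.09 and -0.29, so dim genes as a whole lay in the same direction, and after quantile normalization the list had -0.09 and -0.13.

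**Figure D3:**
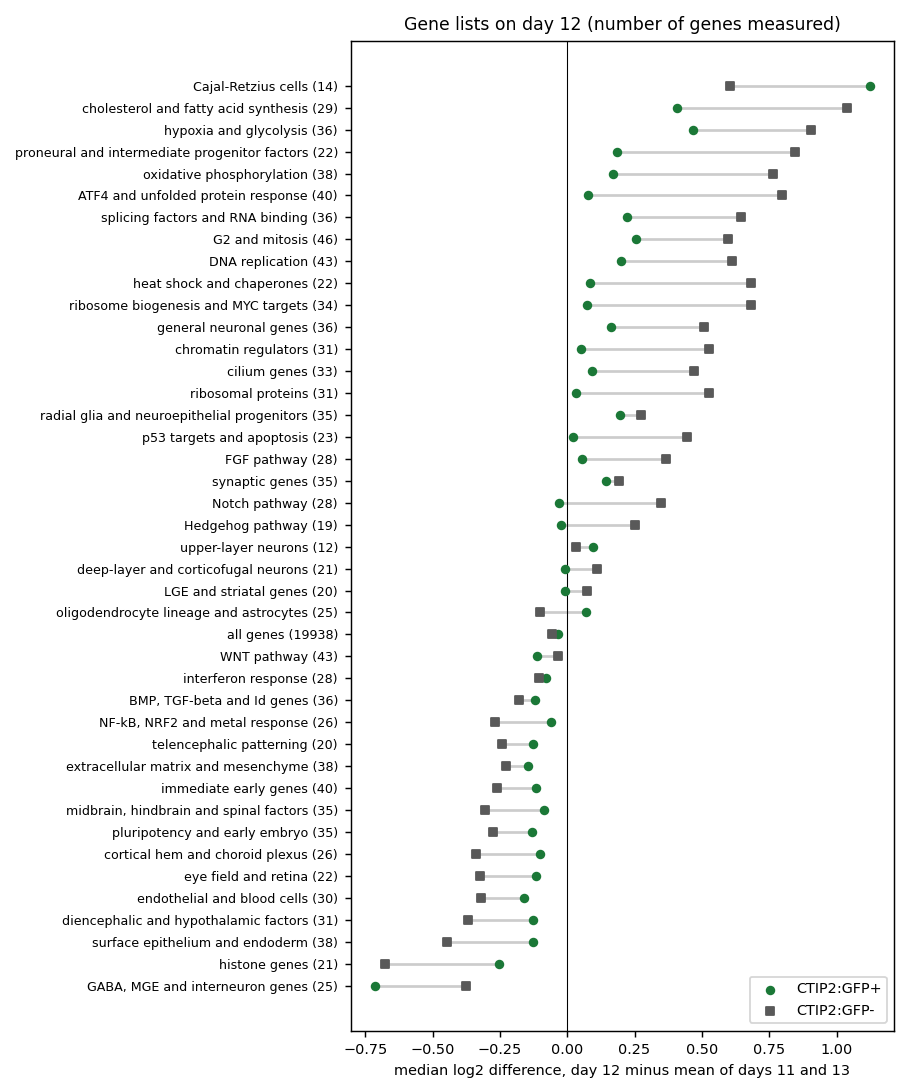
Median log2 difference of day 12 against the mean of days 11 and 13 for 41 gene lists and for all genes, with circles for CTIP2:GFP+ and squares for CTIP2:GFP- cells and the number of genes measured in brackets. Cajal-Retzius genes have the highest CTIP2:GFP+ median (1.12) and GABA, MGE and interneuron genes the lowest (-0.71), and the CTIP2:GFP- medians spread wider than the CTIP2:GFP+ medians for most lists.

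How far the 47 genes stand out was read against all genes. In CTIP2:GFP+ cells 124 genes were over 2-fold higher on day 12 (0.622%) and 35 were lower (0.176%), and in CTIP2:GFP- cells 1425 were higher (7.15%) and 120 lower (0.602%). Both at once held for 39 genes higher (0.196%) and 8 lower (0.0401%), and 0 genes were over 2-fold in opposite directions. The day 12 differences of the 2 fractions correlated across genes, which are not independent replicates, at r = 0.558. By the same rule 5 genes were over 2-fold apart on day 11 in both fractions (1 higher, 4 lower) and 12 genes on day 13 (2 higher, 10 lower). In CTIP2:GFP- cells alone, 318 genes were over 2-fold higher and 1634 lower on day 13 by that rule. The day 13 array is also part of the reference for the 1425 genes of day 12. Signal level moved with the difference. In the dimmest 20% of genes the median was -0.06 in CTIP2:GFP+ and -0.23 in CTIP2:GFP- cells, in the brightest 20% it was 0.11 and 0.66, and 34 of the 47 genes lay in the brightest 20% and 0 in the dimmest. The part of signal level in the differences was not tested. Just inside the threshold on the higher side were Hoxa2 (1.004 in CTIP2:GFP+ cells) and Stk39 (1.01) and just outside it Ppargc1a (0.996) and Crybg3 (0.990), and on the lower side Rny1 (-1.07) and Nkx2-1 (-1.11) lay just inside.

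**Figure D4:**
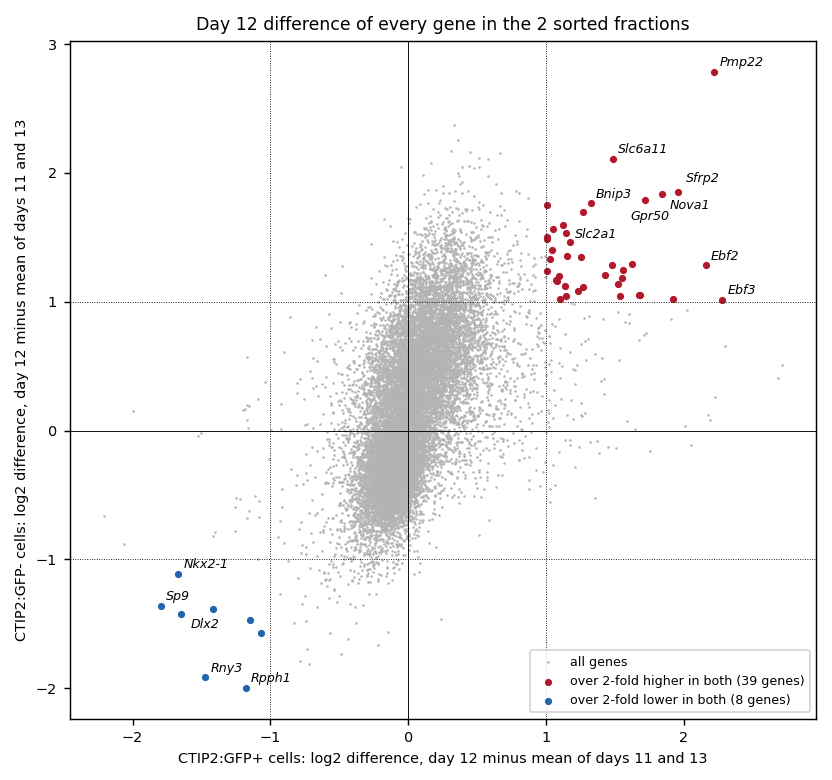
Log2 difference of day 12 against the mean of days 11 and 13 for each of 19938 genes, with CTIP2:GFP+ cells on the x axis and CTIP2:GFP- cells on the y axis, dotted lines at 2-fold, and the 39 higher and 8 lower genes coloured. No gene lies past 2-fold in opposite directions, and the cloud is taller than wide, with 1425 genes over 2-fold higher in CTIP2:GFP- and 124 in CTIP2:GFP+ cells.

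The choice of reference day mattered more in CTIP2:GFP- cells. Of the 39 higher genes, 36 were over 2-fold above day 13 there but 13 were over 2-fold above day 11, whereas in CTIP2:GFP+ cells 35 were over 2-fold above day 11 and 29 above day 13. Against day 11 alone the CTIP2:GFP- differences of the 39 ran from 0.03 for Ebf3 to 2.75 for Slc6a11, 22 of them over 1.5 times smaller than against both days and 1, that of Slc1a3, over 1.5 times larger. With the CTIP2:GFP- difference taken against day 11 alone, which leaves out the array that stands apart, 13 of the 39 remained, namely Aldoc, Aqp6, Chrdl1, Gpr50, Grm3, Pmp22, Prdm8, Sema3a, Sfrp2, Slc1a3, Slc2a1, Slc6a11 and Stk39. Of the 8 lower genes the 4 small non-coding RNAs remained and the 4 ventral forebrain genes did not. In both fractions 7 genes, Aqp6, Gpr50, Pmp22, Sema3a, Sfrp2, Slc2a1 and Slc6a11, were over 2-fold above the nearer of the other days, and 0 of the 8 lower genes were over 2-fold below it. After quantile normalization 9 of the 39 and 7 of the 8 remained.

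CTIP2:GFP+ and CTIP2:GFP- cells were also compared with limma, with day as a factor, because that difference was not used to choose the genes, although choosing genes with like differences in both fractions also limits the residual spread that the test uses. Of the 39 higher genes, 8 were lower in CTIP2:GFP+ cells at an adjusted p under 0.05 (limma, Benjamini-Hochberg over 19938 genes) and 0 were higher, beside 0.567% and 0.797% of all genes. By size alone 14 of the 39 were over 2-fold lower and 3 over 2-fold higher in CTIP2:GFP+ cells, and of the 8 lower genes 3 were over 2-fold higher, beside 1.02% and 1.97% of all genes. The 8 that passed were Slc1a3, Sfrp2, Slc6a11, Pmp22, Tspan18, Slc2a1, Gpr50 and Grm3. Pmp22 differed by -1.80 on the log2 scale (standard error 0.26, adjusted p = 0.0447, limma), on all 3 days. Slc2a1 differed by -1.56 (standard error 0.17, adjusted p = 0.0280, limma), also on all 3 days, and Slc6a11 by -1.88 (standard error 0.21, adjusted p = 0.0289, limma). Of the 8 lower genes, Dlx2 and Dlx5 were higher in CTIP2:GFP+ cells, and Sp9 (1.25, adjusted p = 0.101 by limma) and Nkx2-1 (0.78, adjusted p = 0.112 by limma) did not pass. The small non-coding RNAs differed between the fractions by -0.43 to 0.01, with 0 of 4 past the test. Without day 13 the test called 0 of the 47 genes and 0 of all 19938 genes. Without day 12 it called 14 of the 39 genes lower and 1, Nova1, higher in CTIP2:GFP+ cells, and without day 11 it called 9 lower and 5, Ebf3, Edil3, Gria3, Lamp5 and Nova1, higher. Of the 8 genes it called 4 higher without day 12 and 2 without day 11. Over all genes it called 229 lower and 930 higher without day 12, and 171 lower and 381 higher without day 11. After median centring it called 0 of the 47 and 0 of all genes. The adjusted p there was 0.0981 (limma) for Slc1a3, Dlx2 and Dlx5.

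Day 13 was set against day 11 with limma, with fraction as a factor. At an adjusted p under 0.05, 0 of 19938 genes differed, the lowest adjusted p of the 47 genes was 0.911, and 447 of all genes (2.24%) had an unadjusted p under 0.05. The rule used the arrays of both days and favoured genes that were low on the CTIP2:GFP- array of day 13, so the differences of the 47 genes are given as a description. In CTIP2:GFP- cells day 13 lay below day 11 for 34 of the 39 higher genes, and in CTIP2:GFP+ cells for 15. The mean of both fractions differed by over 2-fold for Nova1 (-1.45), Lamp5 (-1.27), Hoxa2 (-1.12), Chrna3 (-1.11) and Slc6a5 (-1.02), all lower on day 13, as 0.155% of all genes were. Of the 8 lower genes, Rny3 (1.14) and Rpph1 (1.001) were over 2-fold higher on day 13 than on day 11, as 0.0502% of all genes were.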

How the data were processed

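RNA of 6 samples, CTIP2:GFP+ and CTIP2:GFP- cells of 3 days, was hybridised, 1 sample per array, to the GeneChip Mouse Gene 1.0 ST after labelling with the Ambion WT Expression kit. The values are log2 signals that the authors made with RMA16 in GeneSpring and deposited as 1 table. Not given in the sources used here are the genome build, any filter and whether normalization was joint. RMA compresses differences of dim probe sets. Scanner files were not used here.

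Of 28853 probe sets, 21789 had 1 symbol in the platform annotation, 1621 several and 5443 none. A gene was represented by its single-symbol probe set with the highest mean over the 6 arrays, which gave 19938 genes, of which 19853 matched the RefSeq table of GRCm38.p6 by Entrez ID and 0 changed symbol. No dim probe set was removed. On day 12 the difference is the day 12 value minus the mean of day 11 and day 13 in each fraction, with no test. Fractions (day as a factor) and day 13 against day 11 (fraction as a factor) were compared with limma 3.58.1 in R 4.3.3 with eBayes, 2 residual degrees of freedom and Benjamini-Hochberg adjustment over all genes at 0.05, tested on simulated data first. With both factors in the fit, the spread is how far the difference between the fractions varied from day to day, which may be technical.

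The pairing of fractions comes from the day in the labels, and with each fraction centred, the r between the 2 arrays of a day, over genes, was 0.112 (day 11), 0.558 (day 12) and 0.368 (day 13). The genes, the 41 lists and the tests were chosen with earlier results of these data known, and 5 lists were added after seeing the values. Named genes were the 16 largest rises and falls with day 12 the extreme of both fractions (small RNAs and gene models left out), up to 4 per shifted list, those next to the 2-fold threshold, Bcl11b and L1cam. The 47 genes, small RNAs included, and further list genes were named after their values were seen. Alternatives were median centring, quantile normalization, the mean of probe sets, filters at the 20th percentile and the median, other reference days, other fold thresholds, probe sets as units, a trended and robust eBayes, no block for the day and each day left out. Promoters were searched in Python 3.11.15.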

Additional observations from a re-analysis of the deposited data

Results flagged for a closer look

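Of 7064 probe sets with no symbol or with several, which enter no comparison of genes, 13 were over 2-fold lower on day 12 in both fractions and 0 were over 2-fold higher. They are unnamed here, and the difference has no replicate check. With 3 arrays per fraction no test for a single outlying array was made.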

How the results depend on the processing

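Counts of genes over 2-fold in both fractions are given as higher and lower, 39 and 8 in the report. They were 9 and 18 after quantile normalization, 7 and 0 against the nearer of the other days, 16 and 5 with the CTIP2:GFP- difference taken against day 11 alone, 287 and 60 at 1.5-fold and 4 and 0 at 3-fold. Against day 11 alone they were 27 and 2, against day 13 alone 58 and 11, and in probe sets 50 and 21. Median centring gave 54 and 7, and it moved the median of all genes from -0.06 to 0.10 in CTIP2:GFP- cells. With the mean of probe sets the counts were 38 and 8, and both filters on dim genes left 39 and 8. A named gene's value stayed within the criterion where its change was under the standard deviation of its 2 fraction differences, which is no replicate error. Both filters leave a gene's difference as it is, so the 42 values under each could not move. The mean of probe sets can move only genes with several probe sets. Of the values of 42 named genes under 8 settings, 244 stayed within the criterion, 89 moved and 3 changed sign. The 3 belong to L1cam, whose mean difference of 0.19 became -0.14 after quantile normalization, -0.14 against day 11 alone and -0.0635 with CTIP2:GFP- cells against day 11 alone.

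The comparison of fractions called 8 of the 39 genes lower and 2 of the 8 higher in CTIP2:GFP+ cells. With no replicate block, so that the pairing by day was ignored, it called 0 and 0. It called 0 and 0 after median centring, 6 and 0 after quantile normalization, 13 and 3 with the filter at the 20th percentile and 15 and 3 with a trended and robust eBayes. Of the 39, 0 were called higher in CTIP2:GFP+ cells in the report, but 2 (Gria3 and Nova1) with that filter and 4 (Edil3, Gria3, Lamp5 and Nova1) with that eBayes. Leaving out a day gave 0 to 14 called lower and 0 to 5 called higher of the 39, and 0 to 4 called higher of the 8, with 0 of each without day 13. Over all genes the calls higher and lower were 159 and 113, and 84 and 41 with no replicate block. They were 0 and 0 after median centring and 52 and 99 after quantile normalization. With the filter they were 387 and 226 of 16746 genes, and with that eBayes 549 and 510. Leaving out day 11 gave 381 and 171, day 12 gave 930 and 229, and day 13 gave 0 and 0. Day 13 against day 11 gave 0 calls in each setting, which does not show that these days are alike. The cause of these shifts was not tested. Probe sets close to background give small differences, and with 1 array per fraction and day the day 12 values have no replicate.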

Other observations

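Factors of the midbrain, hindbrain and spinal cord, a list of 35 measured genes, had median differences of -0.09 and -0.31 and median signals of 5.36 to 5.97 on the 6 arrays. Of the 35, 21 were lower on day 12 in both fractions while 7 were higher, beside 44.3% lower and 32.9% higher of all genes. The 3 genes of the list over 2-fold higher in CTIP2:GFP+ cells were Lbx1, Pax8 and Hoxa2, chosen here after their values were seen. Lbx1, a homeobox gene of dorsal interneurons of the spinal cord and hindbrain, stood at 6.53, 7.71 and 6.18 in CTIP2:GFP+ cells on day 11, day 12 and day 13 and at 6.67, 6.35 and 7.07 in CTIP2:GFP- cells. Pax8, a paired-box gene of the midbrain-hindbrain boundary and of such interneurons, stood at 6.85, 7.81 and 6.62 and at 7.02, 6.99 and 6.56. Both were highest on day 12 in CTIP2:GFP+ cells and not in CTIP2:GFP- cells, and the difference between the fractions was not tested.

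Oxidative phosphorylation genes had medians of 0.17 in CTIP2:GFP+ and 0.76 in CTIP2:GFP- cells. Of 38 genes, 23 were higher on day 12 in both fractions and 4 lower, beside 32.9% higher and 44.3% lower of all genes. After quantile normalization the medians were 0.07 and 0.21. Radial glial genes had medians of 0.19 and 0.28, but quantile normalization turned the CTIP2:GFP- median to -0.24.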
